A study of Mus musculus with 4 samples.

Results

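The 7 genes described here encode G protein coupled receptors for lipids and nucleotides: Gpr55, Gpr34, P2ry14, P2ry10, Gpr132, Gpr174 and Gpr183. They were taken by symbol, and 7 of 7 were found among the 31253 genes of the files. Measurements came from 4 droplet-based 10x Genomics libraries of T cells, gated on CD45 and CD8, from tumours that the mouse bladder carcinoma line MB49 formed, with the cells of 3 mice pooled in each library. The KO library came from subcutaneous tumours of mice with Bfar deleted in CD8 T cells, and the WT library from tumours of wild-type mice, both labelled C57BL/6Slac and aged 10 to 12 weeks. What drives the deletion is not stated by the labels. The Aged library came from hosts labelled B6.129S7-Rag1tm1Mom/J that had received CD8 T cells of donors 18 months old, and the Young library from hosts labelled B6.129S7-Rag1tm0Mom/J that had received cells of donors 8 weeks old. Both sets of Rag1-deficient hosts were aged 8 to 10 weeks, lack T and B cells of host origin but keep other immune cells, and were given the T cells by vein on the day of tumour inoculation. KO and WT are called the Bfar experiment below, and Aged and Young the transfer experiment. Each group held 1 library, so the differences between KO and WT and between Aged and Young have no replicate check, and all intervals on them are 95% intervals that cover counting error only.

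Receptors of this kind let T cells read lipids and nucleotides in the fluid around them and pass the signal to heterotrimeric G proteins, which act on cyclic AMP, on calcium and on the cell's skeleton. Gpr34, P2ry10 and Gpr174 are receptors for lysophosphatidylserine, and Gpr174 is known in mouse T cells as a brake on activation. Gpr55 responds to lysophosphatidylinositol, and Gpr132 responds to oxidised fatty acids and belongs to the proton-sensing family. Gpr183, also called EBI2, is the receptor for an oxysterol that guides the movement of lymphocytes and dendritic cells. P2ry14 responds to UDP-glucose and other UDP sugars, which cells release under stress.

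The members lie on chromosomes 1, 3, 12, 14 and X of the mouse genome (GRCm38). Gpr55 spans chr1:85938318-85961007 on the minus strand, P2ry14 spans chr3:59113855-59153618 (minus), Gpr132 spans chr12:112850873-112868228 (minus) and Gpr183 spans chr14:121952551-121965195 (minus). The 3 lysophosphatidylserine receptors are X-linked: Gpr34 spans chrX:13632089-13640858, P2ry10 spans chrX:107088492-107104974 and Gpr174 spans chrX:107255878-107296769, all on the plus strand. Genes on the opposite strand overlap Gpr55 (4933407L21Rik), Gpr34 (Cask), P2ry14 (Med12l), Gpr174 (the pseudogene Gm9208) and Gpr183 (Ubac2). The sources used here do not give the strand setting of the counting, so whether reads of these pairs were kept apart by strand is not known here. P2ry10 also has a near copy, P2ry10b, to which its reads could be split.

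RefSeq promoter windows (GRCm38.p6) were found for 6 of the 7 members, as 10 windows running from 250 bases before a start site to 50 bases after it. One window each of the 4 members that were higher in Tcf7-positive cells in the gate test is shown because Tcf7 encodes TCF-1, a DNA-binding factor. Capitals mark TCAAAG or its reverse complement CTTTGA, the core that TCF and LEF factors bind.
Gpr132 (chr12:112860867-112861166, minus strand): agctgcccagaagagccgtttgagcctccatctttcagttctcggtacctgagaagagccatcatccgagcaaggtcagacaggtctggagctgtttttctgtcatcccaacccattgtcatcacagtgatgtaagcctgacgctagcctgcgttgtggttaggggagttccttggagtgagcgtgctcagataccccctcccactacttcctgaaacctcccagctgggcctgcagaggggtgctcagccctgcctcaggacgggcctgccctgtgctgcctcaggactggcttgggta
Gpr183 (chr14:121965144-121965443, minus strand): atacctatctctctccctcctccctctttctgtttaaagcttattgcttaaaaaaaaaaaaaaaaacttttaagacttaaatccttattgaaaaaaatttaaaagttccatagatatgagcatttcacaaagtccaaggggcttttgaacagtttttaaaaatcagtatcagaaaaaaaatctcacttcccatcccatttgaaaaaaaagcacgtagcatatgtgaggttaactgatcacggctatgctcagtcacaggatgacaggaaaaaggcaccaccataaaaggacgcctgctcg
P2ry10 (chrX:107088242-107088541, plus strand): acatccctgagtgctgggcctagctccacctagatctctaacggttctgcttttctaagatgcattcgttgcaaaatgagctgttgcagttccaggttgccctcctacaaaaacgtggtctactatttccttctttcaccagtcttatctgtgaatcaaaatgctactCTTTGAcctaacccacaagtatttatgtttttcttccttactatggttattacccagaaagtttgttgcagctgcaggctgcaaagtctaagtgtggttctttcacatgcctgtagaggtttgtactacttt
Gpr55 (chr1:85961006-85961305, minus strand): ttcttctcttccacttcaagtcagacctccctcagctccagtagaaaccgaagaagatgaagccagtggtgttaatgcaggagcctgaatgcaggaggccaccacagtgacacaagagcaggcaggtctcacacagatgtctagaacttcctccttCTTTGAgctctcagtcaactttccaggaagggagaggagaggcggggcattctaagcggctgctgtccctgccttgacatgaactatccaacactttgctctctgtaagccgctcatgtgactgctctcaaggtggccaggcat
P2ry10 had 2 windows, of which the upstream one is shown. It held 1 match, starting 82 bases before the start site, and the Gpr55 window held 1 match, starting 94 bases before it. The Gpr132 and Gpr183 windows held none of these letters. Read on both strands, the core was present in 4 of the 10 member windows (in Gpr55, P2ry14, P2ry10 and Gpr174) and in 16.0% of all 32851 windows. Of the other motifs searched on both strands, the RUNX core TGTGGT was in 4 of 10 member windows and 16.8% of all windows, the AP-1 motif TGANTCA in 3 of 10 and 7.81%, and the E-box CACGTG in 0 of 10 and 7.15%. None of these motifs contains another, and a match is a run of letters and not a measured site.

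Barcodes kept for the analysis had 1000 or more UMIs (unique molecular identifiers, 1 per captured RNA molecule), 500 or more genes and mitochondrial UMIs of no more than 10%, and carried at least 1 UMI each of the CD3 and the CD8 genes. They numbered 8153 (KO), 8966 (WT), 8252 (Aged) and 9803 (Young), which was 93.0% to 96.9% of the filtered barcodes, and their summed depth was 60805219 to 76204380 UMIs a library. Bfar itself stood at 22.4 CPM (UMIs of a gene scaled to an equal library total, as for every level below) in KO, against 32.1 in WT, and at 26.0 in Aged, against 22.1 in Young, and a 3' tag of an exon that was not deleted checks nothing. Barcodes with at least 2 genes of another cell type's marker list made up 15.3% to 19.4% of these cells. The 9 listed dendritic cell genes summed to 409 CPM (KO), 435 (WT), 1273 (Aged) and 5616 (Young), and the 7 mast cell or basophil genes to 341 (KO), 848 (WT), 7.14 (Aged) and 18.0 (Young). A library shared at most 114 of its barcodes with another, in Aged and Young. The female transcript Xist had 87062 UMIs in KO and 79919 in WT but 6 in Aged and 0 in Young, and the pairs also differed in kit and Cell Ranger version, so no level was compared across them.

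All 7 receptors were detected in all 4 libraries. The UMIs summed over the cells of a library and divided by its total gave levels in CPM, which are read within a gene and not between genes. Gpr183 stood at 290 CPM in KO and 223 in WT, and at 159 in Aged and 176 in Young. P2ry10 stood at 278 CPM in KO and 237 in WT, and at 78.3 in Aged and 104 in Young. Gpr132 stood at 169 CPM in KO and 143 in WT, and at 159 in Aged and 218 in Young. These 3 were the members with the most UMIs in every library, between 5102 and 20229.

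The other 4 members had 207 to 3440 UMIs a library. Gpr55 stood at 49.4 CPM in KO and 28.2 in WT, and at 13.4 in Aged and 24.98 in Young. Gpr174 stood at 37.2 CPM in KO and 35.1 in WT, and at 31.4 in Aged and 22.2 in Young. Gpr34 stood at 16.2 CPM in KO and 14.2 in WT, and at 3.18 in Aged and 4.10 in Young, and P2ry14 at 11.5 CPM in KO and 12.1 in WT, and at 8.50 in Aged and 13.7 in Young. The near copy P2ry10b stood at 4.84 CPM (KO), 4.51 (WT), 3.47 (Aged) and 3.70 (Young).

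**Figure D1:**
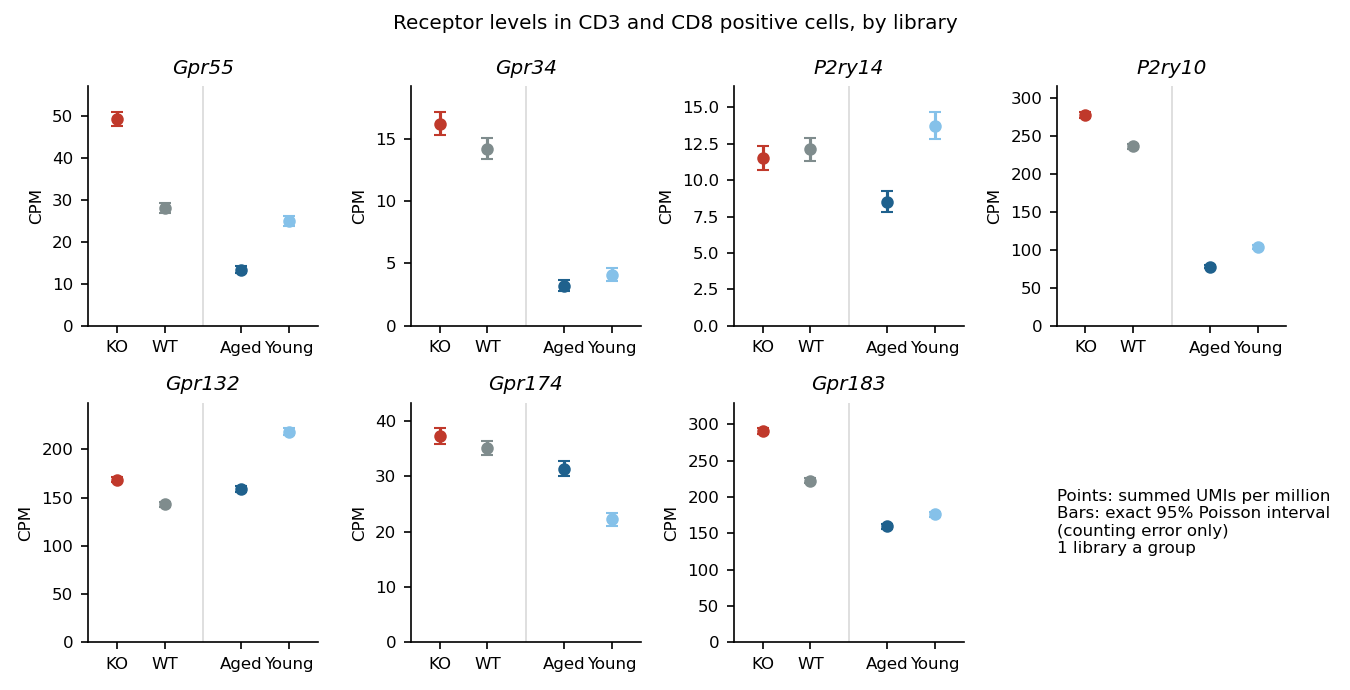
Level of each of the 7 receptors in the 4 libraries, in CPM of the summed UMIs of CD3+ CD8+ cells on linear axes from 0, 1 panel a receptor, with exact Poisson 95% intervals as bars and a line between the pairs. Gpr55 is higher in KO (49.4 CPM) than in WT (28.2 CPM), and Gpr174 is the one member that is higher in Aged (31.4 CPM) than in Young (22.2 CPM).

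Barcodes of tumour or stromal cells that carried no UMI of Ptprc or the CD3 and CD8 genes served as a background. They hold the RNA of these cells as well as free RNA. There were 14 (KO), 94 (WT), 113 (Aged) and 133 (Young) such barcodes, with median totals of 23356 to 37104 UMIs, against 4510 to 6870 in the T cells. The same amount of free RNA is a smaller share of a larger total. The CPM values below are thus no upper limit on free RNA in the T cells, above all for the low levels of Gpr34. Gpr34, P2ry14 and Gpr174 had 0 UMIs in them in every library, which allows up to 5.08 CPM (KO), 1.08 (WT), 0.959 (Aged) and 0.977 (Young). Gpr55 had 1 UMI in all, in Aged, P2ry10 had 3, in WT, and Gpr183 had 1 in KO and 3 in WT. Gpr132 was the one member seen there in each library, at 8.47 CPM (KO), 2.16 (WT), 3.52 (Aged) and 4.23 (Young), far under its level in the T cells.

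To compare shares of cells across depths, each cell was thinned to 2000 UMIs, which left out 45 KO, 80 WT, 201 Aged and 611 Young cells. Gpr55 then had a UMI in 9.13% (KO), 5.92% (WT), 3.32% (Aged) and 5.30% (Young) of the cells, and unthinned in 22.4% (KO), 15.5% (WT), 8.75% (Aged) and 12.3% (Young). P2ry10 had one in 41.5% (KO), 39.7% (WT), 15.9% (Aged) and 19.8% (Young) of the cells, and Gpr183 in 42.1% (KO), 35.8% (WT), 29.1% (Aged) and 30.9% (Young). In the thinned tumour or stromal barcodes Gpr55 was seen in 0 of 14, 92, 110 and 128 barcodes in KO, WT, Aged and Young, which allows shares of up to 21.4%, 3.26%, 2.73% and 2.34%. At this depth 21.6% (KO), 25.7% (WT), 39.1% (Aged) and 31.8% (Young) of the cells held no UMI of any of the 7 receptors.

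Gpr55, the lysophosphatidylinositol receptor, was the member with the widest gap between KO and WT. Its level in KO was 1.75 times that in WT (interval 1.66 to 1.85), which placed it 13th from the highest ratio among the 7415 genes measured in this pair, that is with 20 or more UMIs in the pair and a level of 10 CPM or more in either library. It was the 1 of 7 members past 1.5-fold higher in KO, where 0.607% of all measured genes were, and 0 of 7 were past 1.5-fold lower, where 3.09% of all were. The 8 classes made by the presence or absence of Tcf7, Gzma and Havcr2 UMIs in a cell gave a Gpr55 ratio above 1 in 8 of 8, with an interval above 1 in 7, from 1.36 in Tcf7+ Gzma+ Havcr2- cells to 2.05 in Tcf7- Gzma- Havcr2+ cells. The classes share the 2 libraries and are not replicates. In Itgae-positive cells Gpr55 stood at 78.9 CPM in KO, against 44.7 in WT, and in Itgae-negative cells at 36.2 CPM in KO, against 20.9 in WT. Without barcodes that carried markers of other cell types it stood at 54.0 CPM in KO and 34.2 in WT, a ratio of 1.58 (1.49 to 1.67).

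Gpr183 followed, at 1.305 times its WT level in KO (1.28 to 1.33). Its ratio was above 1 with an interval above 1 in 8 of 8 gate classes, from 1.15 in Tcf7+ Gzma- Havcr2- cells to 1.62 in Tcf7- Gzma+ Havcr2+ cells. P2ry10 and Gpr132 both stood at 1.18 times their WT level in KO, with intervals of 1.15 to 1.20 and 1.15 to 1.21. Their ratio was above 1 in 7 of 8 classes each, the exception in both being Tcf7+ Gzma+ Havcr2+ cells, the class with the fewest cells (92 in KO and 79 in WT).

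The other lysophosphatidylserine receptors and P2ry14 lay closer to WT over all cells. Gpr34 had a ratio of 1.14 (1.05 to 1.24), Gpr174 a ratio of 1.06 (1.0 to 1.1) and P2ry14 a ratio of 0.948 (0.862 to 1.04), an interval that includes 1. Among the gate classes P2ry14 ran from 0.346 (0.149 to 0.737) in Tcf7+ Gzma+ Havcr2+ cells, on 10 UMIs in KO and 27 in WT, to 1.11 in Tcf7- Gzma- Havcr2+ cells, with an interval below 1 in 1 of 8 classes and above 1 in 0. Over all Tcf7-positive cells its ratio was 0.756 (0.624 to 0.915), and over Tcf7-negative cells 1.04 (0.934 to 1.17). Gpr34 had an interval above 1 in 1 of 8 classes, Tcf7- Gzma- Havcr2+ cells (1.42, 1.20 to 1.67), and a ratio of 1.296 (1.14 to 1.48) over Havcr2-positive cells, against 1.03 (0.922 to 1.15) over Havcr2-negative cells. Gpr174 had an interval above 1 in 1 of 8 classes, Tcf7- Gzma+ Havcr2- cells, at 1.298. Whether these ratios differ between classes was not tested. The 7 members had a median log2 ratio of 0.23, beside -0.048 over all measured genes. Of the further lists, 0 of 11 measured receptors for lipids and nucleotides, 0 of 35 measured signal transducers and 1 of 14 measured enzymes or carriers of ligands were past 1.5-fold. Among the receptors the ratio was highest for the proton sensor Gpr65, at 75.5 CPM in KO and 55.4 in WT (1.36), and lowest for Gpr18, at 67.4 CPM in KO and 85.9 in WT (0.785). Among the transducers the ratios ran from 0.785 for Gna11 to 1.39 for Creb1, and the highest ratio of an enzyme was 1.13, for Ptdss1. The 1 enzyme past 1.5-fold was Enpp2, which makes lysophosphatidic acid, at 6.09 CPM in KO and 15.3 in WT (0.399). Fibroblast genes, summed over a list of 7, stood at 45.8 CPM in KO and 281 in WT, and their part in the Enpp2 ratio was not tested.

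**Figure D2:**
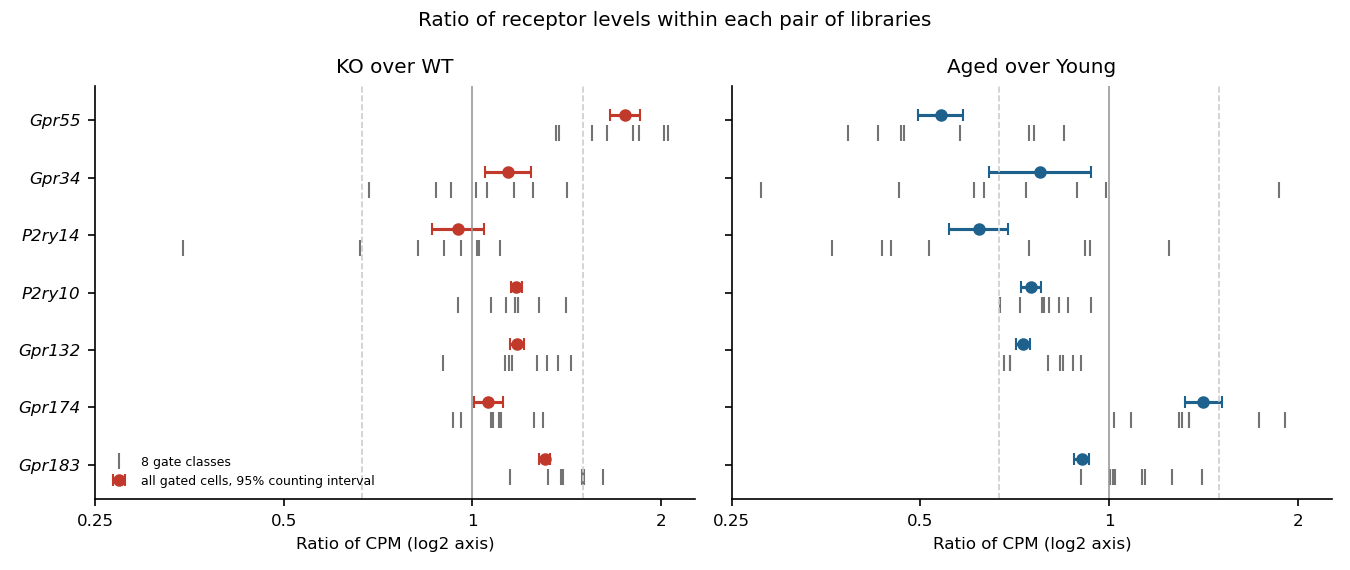
Ratio of the level in KO to that in WT and of the level in Aged to that in Young for each receptor, on a log2 axis, as points over all gated cells with exact 95% intervals for counting error, grey ticks for the 8 gate classes and dashed lines at 1.5-fold. Gpr55 lies at 1.75 in the first pair and 0.538 in the second, and Gpr174 lies at 1.06 and 1.41.

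Between Aged and Young, most of the receptors were lower in Aged and 1 was higher. Gpr55 in Aged stood at 0.538 times its Young level (0.495 to 0.585) and P2ry14 at 0.619 times (0.555 to 0.690), and these 2 of 6 measured members were past 1.5-fold lower, where 3.83% of the 7938 measured genes were. None of the 6 was past 1.5-fold higher, where 2.62% of all were. Gpr132 stood at 0.729 times its Young level (0.710 to 0.748), P2ry10 at 0.751 times (0.724 to 0.779) and Gpr183 at 0.905 times (0.880 to 0.929). Gpr34 stood at 0.776 times (0.642 to 0.937) but was under the 10 CPM needed to count as measured in both libraries. Gpr174, the receptor known as a brake, went the other way, at 1.41 times its Young level (1.32 to 1.52).

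The order held in the gate classes for some members and not for others. Gpr55 was lower in Aged in 8 of 8 classes, with an interval below 1 in 6, from 0.383 in Tcf7- Gzma+ Havcr2- cells to 0.846 in Tcf7+ Gzma+ Havcr2+ cells. P2ry10 and Gpr132 were lower in 8 of 8 classes each, with an interval below 1 in 6 each, and Gpr174 was higher in 8 of 8, with an interval above 1 in 4 and ratios of 1.02 to 1.91. Gpr183 had a ratio above 1 in 7 of 8 classes, with an interval above 1 in 2, while its ratio over all cells was below 1. The ratio was 1.02 in Tcf7- Gzma- Havcr2- cells and 0.903 in Tcf7- Gzma- Havcr2+ cells. This last class, where Gpr183 was low in both libraries, held 25.4% of Aged and 9.14% of Young cells. With the classes weighted alike in both libraries the log2 ratio of Gpr183 was 0.033, against -0.14 as the cells came.

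The P2ry14 difference was smaller without barcodes that carried markers of other cell types, dendritic cells among them. P2ry14 stood at 24.5 CPM in Havcr2-positive and 9.12 in Havcr2-negative Young cells, and the dendritic genes at 17453 CPM in Havcr2-positive and 536 in Havcr2-negative Young cells. Barcodes outside the T cell gate with dendritic markers had P2ry14 at 34.7 CPM in Aged (61 barcodes) and 71.5 in Young (62 barcodes). With all barcodes that carried markers of other cell types left out, P2ry14 stood at 7.61 CPM in Aged and 9.04 in Young, a ratio of 0.841 (0.723 to 0.978), and no longer passed 1.5-fold. Dendritic barcodes were not left out alone, so their part in this change was not tested. Gpr55 without the barcodes of all other cell types stood at 15.0 CPM in Aged and 27.1 in Young, a ratio of 0.554 (0.503 to 0.611).

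The 6 measured members had a median log2 ratio of -0.43, beside 0.083 over all measured genes. Of the further lists, 2 of 12 measured receptors were past 1.5-fold higher in Aged and 2 lower, with the prostaglandin receptor Ptger2 at the top (1.71) and its relative Ptger4 at the bottom (0.650). Of 34 measured transducers 1 was higher and 2 were lower. The one higher was Rgs16, which speeds the shut-off of G proteins, at 618.1 CPM in Aged and 233 in Young (2.65), and the lowest ratio was that of its relative Rgs10 (0.554). Of 13 measured enzymes or carriers 2 were higher and 0 lower, led by the lactate carrier Slc16a3 (2.08), and the lowest ratio was that of Nt5e (0.779).

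The members differed in which CD8 T cells held them. Cells were split by at least 1 UMI of a marker gene, and the summed UMIs of the positive and negative cells of each library were compared with edgeR's quasi-likelihood test over the 4 libraries, with library as a block and Benjamini-Hochberg adjustment over all genes tested. A negative cell may still express the gene, since positive cells had more UMIs (for Tcf7, medians of 4992 to 7313.5, against 4188.5 to 6641 in negative cells). Fold changes are log2 with their standard error (SE, n = 4 libraries), and the 4 libraries come from different experiments. Relative to division by total UMIs, the scaling of the fit moved all genes by 0.086 (Tcf7), -0.0058 (Gzma), -0.12 (Havcr2), -0.14 (Mki67), -0.052 (Gzmk), -0.11 (Cx3cr1) and 0.028 (Itgae) on the log2 scale. The CPM values given for each library are divided by total UMIs.

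TCF-1, encoded by Tcf7, marks the less differentiated T cells that renew the tumour response. Each of 9 listed genes of that state, among them Slamf6, Il7r and Ccr7, was higher in Tcf7-positive cells. Of the 7 receptors 4 were higher in Tcf7-positive cells, where 13.2% of the 13828 genes tested were, and 1 was lower, where 10.2% were. Gpr132 stood at 196 CPM in positive and 150 in negative KO cells, 166 and 128 in WT, 197 and 144 in Aged, and 241 and 201 in Young cells (log2 fold change 0.45 ± 0.044, edgeR adjusted p = 0.0017). Gpr183 stood at 305 CPM in positive and 280 in negative KO cells, 249 and 207 in WT, 211 and 139 in Aged, and 196 and 161 in Young cells (0.40 ± 0.073, edgeR adjusted p = 0.0097). Both were higher in positive cells in 4 of 4 libraries.

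P2ry10 was higher by 0.27 ± 0.041 (edgeR adjusted p = 0.0054), with 303 CPM in positive and 262 in negative KO cells and 88.8 and 74.2 in Aged cells. Gpr55 was higher by 0.40 ± 0.10 (edgeR adjusted p = 0.031), with 53.0 CPM in positive and 47.0 in negative KO cells, 33.5 and 24.9 in WT, 18.6 and 11.4 in Aged, and 25.3 and 24.7 in Young cells. The Gpr55 fold kept its sign but not its call in thinned cells (0.22, edgeR adjusted p = 0.12), without KO (0.45, edgeR adjusted p = 0.063) and without WT (0.35, edgeR adjusted p = 0.12). Thinning also moved cells across the gate, with 15.8% of KO cells Tcf7-positive when thinned and 38.2% unthinned. Gpr34 was lower in Tcf7-positive cells, at 10.6 CPM in positive and 19.96 in negative KO cells, 10.9 and 16.2 in WT, 1.64 and 3.78 in Aged, and 3.48 and 4.55 in Young cells (-0.64 ± 0.12, edgeR adjusted p = 0.00998, and -0.57 with 0.063 without KO).

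P2ry14 and Gpr174 had lower values in Tcf7-positive cells of 4 of 4 libraries without passing the test. P2ry14 differed by -0.43 ± 0.16 (edgeR adjusted p = 0.10) and Gpr174 by -0.17 ± 0.056 (edgeR adjusted p = 0.063). With barcodes carrying other cell types' markers left out, both passed, P2ry14 at -0.57 (edgeR adjusted p = 0.032) and Gpr174 with an edgeR adjusted p of 0.030, where 10.5% of the genes tested were lower and 14.3% higher. The lysophosphatidylserine receptors thus lay on different sides of the Tcf7 gate, P2ry10 higher and Gpr34 lower in positive cells.

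**Figure D3:**
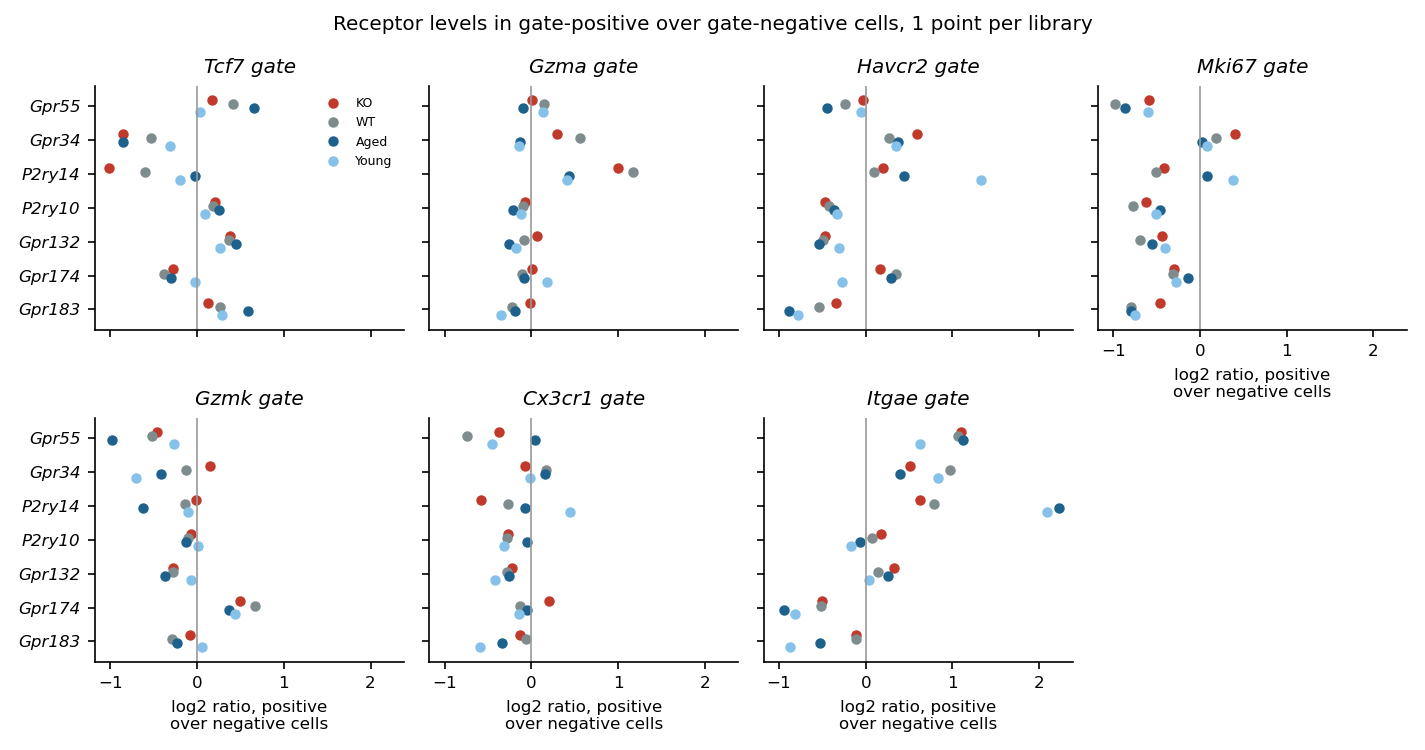
Log2 ratio of each receptor's CPM in gate-positive over gate-negative cells, 1 panel a gate and 1 point a library, with no error bars. For Gpr132, Gpr183, P2ry10 and Gpr55 all 4 points lie above 0 at the Tcf7 gate and below 0 at the Havcr2 and Mki67 gates, and at the Itgae gate all 4 points of Gpr55 lie above 0.

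Havcr2 encodes TIM-3, an inhibitory receptor of exhausted T cells. Of 9 listed genes of that state 4 were higher in Havcr2-positive cells (Pdcd1, Lag3, Tox and Entpd1) and 1, Cd101, was lower. Of the 7 receptors 4 were lower in Havcr2-positive cells, where 17.3% of the 13836 genes tested were, and 1 was higher, where 13% were. Gpr183 stood at 248 CPM in positive and 314 in negative KO cells, 171 and 248 in WT, 112 and 207 in Aged, and 117 and 202 in Young cells (-0.76 ± 0.094, edgeR adjusted p = 0.0037). The positive side was the lower one in 4 of 4 libraries. Gpr132 (-0.57 ± 0.055, edgeR adjusted p = 0.0019) and P2ry10 (-0.52 ± 0.042, edgeR adjusted p = 0.0014) were also lower, each in 4 of 4 libraries. Dendritic genes were higher in Havcr2-positive than in negative cells, at 648 and 280 CPM in KO, 668 and 319 in WT, 2243 and 298 in Aged, and 17453 and 536 in Young. Over the alternative settings, among them thinned cells and other-type barcodes left out, the folds ran from -1.03 to -0.40 (Gpr183), -0.68 to -0.38 (Gpr132) and -0.60 to -0.32 (P2ry10).

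Gpr55 was called lower in Havcr2-positive cells (-0.32 ± 0.090, edgeR adjusted p = 0.042), but the call was lost in thinned cells (-0.12, edgeR adjusted p = 0.68) and without KO, WT or Aged (-0.23 to -0.35, edgeR adjusted p-values of 0.084 to 0.11). Gpr34 was higher, at 20.9 CPM in positive and 13.6 in negative KO cells, 16.2 and 13.2 in WT, 3.70 and 2.65 in Aged, and 4.98 and 3.71 in Young cells (0.34 ± 0.084, edgeR adjusted p = 0.029). This call was lost without KO (0.29, edgeR adjusted p = 0.15), without Aged (0.33, edgeR adjusted p = 0.089) and in thinned cells (0.32, edgeR adjusted p = 0.40). P2ry14 differed by 0.44 ± 0.22 (edgeR adjusted p = 0.19), and by 0.11 (edgeR adjusted p = 0.37) without barcodes that carried other cell types' markers, where 14.8% of genes were higher and 17.3% lower. Gpr174 differed by 0.024 ± 0.10 (edgeR adjusted p = 0.88).

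Gzma encodes granzyme A, a cytotoxic protease. Of 9 genes listed to check this gate 4 were higher in Gzma-positive cells (Gzmb, Gzmk, Itga1 and Ccl5). The other 5 were not called (Prf1, Nkg7, Klrd1, Klrk1 and Cst7). P2ry14 was the 1 of 7 receptors that was higher, where 2.19% of the 13684 genes tested were, and 0 of 7 were lower, where 1.76% were. It stood at 20.8 CPM in positive and 9.86 in negative KO cells, 24.0 and 10.1 in WT, 11.3 and 8.09 in Aged, and 17.3 and 12.9 in Young cells (0.83 ± 0.14, edgeR adjusted p = 0.021). The UDP-sugar receptor was thus higher in 4 of 4 libraries, with ratios that were larger in KO and WT, a difference between the experiments with an edgeR adjusted p of 0.57. Without the KO library its log2 fold change was 0.74 (edgeR adjusted p = 0.11) and without WT 0.68 (edgeR adjusted p = 0.074). With barcodes that carried other cell types' markers left out, it was 0.98 (edgeR adjusted p = 0.00025), where 5.24% of genes were higher and 4.47% lower. Gpr183 (-0.23, edgeR adjusted p = 0.026) and P2ry10 (-0.14, edgeR adjusted p = 0.048) were then lower. The other 6 receptors had edgeR adjusted p-values from 0.077 (Gpr183, -0.20) to 0.98 (Gpr174).

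**Figure D4:**
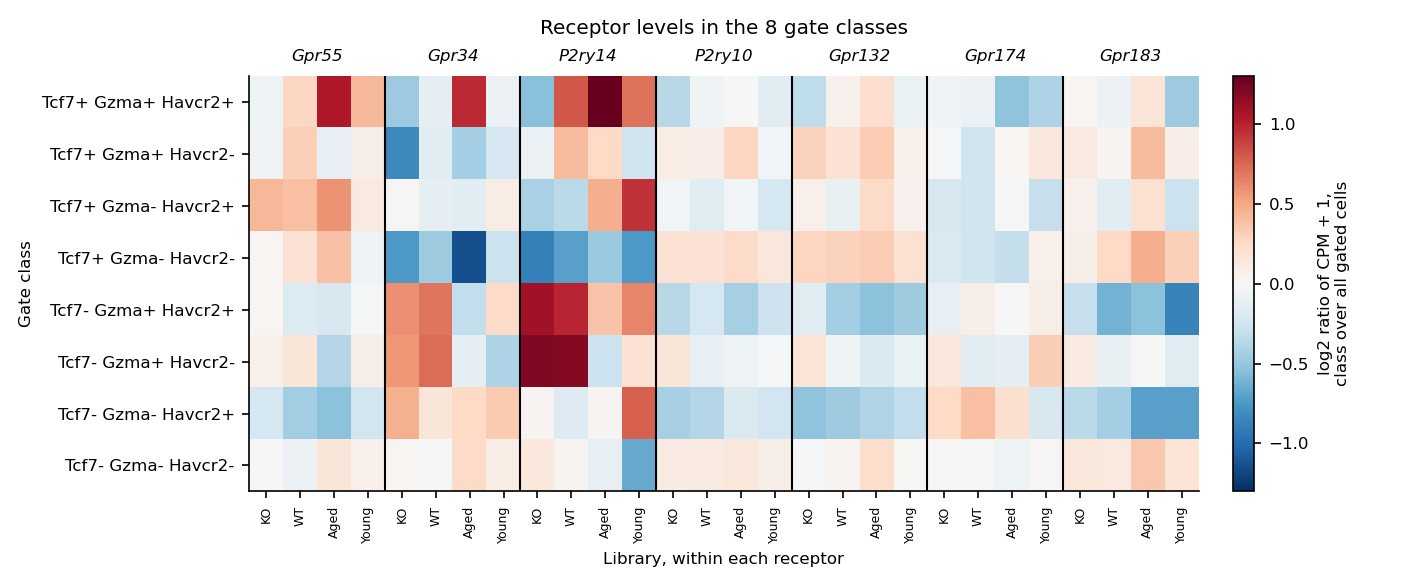
Level of each receptor (column blocks, 1 column a library) in the 8 classes made by the Tcf7, Gzma and Havcr2 gates (rows), coloured by the log2 ratio of CPM + 1 in the class to that in all gated cells of the library, where values beyond the ends of the scale take the end colour. P2ry14 is highest in Tcf7- Gzma+ Havcr2- cells of KO (27.8 CPM) and WT (28.9 CPM), and Gpr132 is lowest in a Havcr2+ class without Tcf7 in every library.

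The 8 classes together placed the receptors within the gated cells, among them barcodes with markers of other cell types. P2ry14 was highest in Tcf7- Gzma+ Havcr2- cells, at 27.8 CPM in KO and 28.9 in WT, and lowest in Tcf7+ Gzma- Havcr2- cells, at 5.80 CPM in KO and 7.06 in WT. In Young the highest P2ry14 level was in Tcf7+ Gzma- Havcr2+ cells (27.2 CPM) and the lowest again in Tcf7+ Gzma- Havcr2- cells (7.80 CPM). In Aged the lowest was in the same class (5.82 CPM), and the highest in Tcf7+ Gzma+ Havcr2+ cells (28.6 CPM, on 20 UMIs in 57 cells). Dendritic genes stood at 17453 CPM in Havcr2-positive and 536 in Havcr2-negative Young cells, and their part in these P2ry14 levels was not tested. Gpr34 was highest in Tcf7- Gzma+ cells in both libraries of the Bfar experiment, at 24.9 CPM (Havcr2+) and 24.4 CPM (Havcr2-) in KO and 23.6 CPM and 24.1 CPM in WT. The 2 P2ry14 levels at the top in KO, 27.8 and 25.5 CPM, had overlapping intervals, as did the 2 Gpr34 levels.

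Gpr55 was highest in Tcf7+ Gzma- Havcr2+ cells of KO, at 67.1 CPM, and of WT, at 37.2 CPM, and lowest in Tcf7- Gzma- Havcr2+ cells, at 41.9 CPM in KO and 20.4 in WT. In Aged and Young its lowest class was the same, at 8.96 and 21.0 CPM, but its highest was Tcf7+ Gzma+ Havcr2+ cells, at 28.6 and 33.9 CPM. Gpr174 was highest in Tcf7- Gzma- Havcr2+ cells in KO (44.6 CPM), WT (46.5 CPM) and Aged (36.3 CPM), but in Tcf7- Gzma+ Havcr2- cells in Young (28.1 CPM). Gpr183 ran from 321 CPM in Tcf7- Gzma- Havcr2- to 227 in Tcf7- Gzma- Havcr2+ cells in KO, and from 222 CPM in Tcf7+ Gzma- Havcr2- to 97.4 in Tcf7- Gzma- Havcr2+ cells in Aged. Of the 7 steps between neighbouring classes in the order of each receptor, at most 3 in any library were beyond counting error. They were 0 for Gpr55 in WT, Aged and Young and 0 for Gpr174 in KO, Aged and Young, so these orders are not resolved step by step.

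Most of the receptors made up a smaller share of the UMIs of dividing cells. In Mki67-positive cells (Mki67 encodes Ki-67, a marker of cells in cycle) 5 of 7 receptors were lower, where 29.8% of the 13805 genes tested were, and 0 were higher, where 26.7% were. Gpr55 stood at 35.2 CPM in positive and 53.4 in negative KO cells, 15.9 and 32.5 in WT, 8.44 and 16.2 in Aged, and 18.3 and 28.4 in Young cells (-0.93 ± 0.084, edgeR adjusted p = 8.2e-05). Gpr183 differed by -0.84 ± 0.060, P2ry10 by -0.74 ± 0.057 and Gpr132 by -0.66 ± 0.054, each lower in 4 of 4 libraries with edgeR adjusted p-values of 2.6e-05 to 4.9e-05. The positive cells had more UMIs than the negative ones, with medians of 9281.5 to 12272, against 4149 to 6589.5. In cells thinned to 2000 UMIs these 4 receptors stayed lower, at edgeR adjusted p-values of 1.8e-07 to 1.3e-05. Both measures are relative to a cell's total, so they do not show fewer receptor UMIs per dividing cell. Thinned, an Mki67 UMI was in 14.3% (KO), 12.0% (WT), 12.7% (Aged) and 17.2% (Young) of the tumour or stromal barcodes. The thinned T cells had one in 5.37% (KO), 6.00% (WT), 9.81% (Aged) and 9.87% (Young). Whether free Mki67 RNA placed T cells on the positive side was not tested. Gpr174 was called lower (-0.40 ± 0.053, edgeR adjusted p = 0.00052), but not in thinned cells (-0.098, edgeR adjusted p = 0.59). Gpr34 was higher in Mki67-positive cells without barcodes that carried markers of other cell types (0.38, edgeR adjusted p = 0.0057), where 20.4% of genes were, and 27.8% were lower.

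Gpr174 went with Gzmk, the gene of granzyme K, a protease of pre-exhausted and effector-memory cells. It stood at 46.1 CPM in Gzmk-positive and 32.3 in Gzmk-negative KO cells, 44.8 and 27.8 in WT, 33.0 and 25.4 in Aged, and 24.9 and 18.1 in Young cells (0.46 ± 0.057, edgeR adjusted p = 0.0091). It was the 1 receptor higher in Gzmk-positive cells, where 5.16% of the 13891 genes tested were, and its adjusted p was 0.056 without the WT library and 0.0019 in thinned cells. Gzmk-positive cells made up 71.3% of Aged and 54.0% of Young cells, and Gpr174 was higher in Aged on both sides of the gate, at 33.0 CPM in Aged and 24.9 in Young positive cells and at 25.4 CPM in Aged and 18.1 in Young negative cells. Gpr55 (-0.62 ± 0.12, edgeR adjusted p = 0.023) and Gpr132 (-0.30 ± 0.069, edgeR adjusted p = 0.038) were lower in Gzmk-positive cells, where 5.47% of all genes were. Without KO the adjusted p of Gpr55 was 0.075 and that of Gpr132 0.12, and without WT they were 0.11 and 0.15, with folds of -0.60 to -0.64 for Gpr55 and of -0.27 and -0.28 for Gpr132. Gpr132 was also not called without Aged (-0.26) or in thinned cells (-0.12).

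Gpr55 was highest where Itgae was present. Itgae encodes the CD103 integrin chain of resident T cells, which dendritic cells also carry. Gpr55 stood at 78.9 CPM in Itgae-positive and 36.2 in Itgae-negative KO cells, 44.7 and 20.9 in WT, 29.1 and 12.8 in Aged, and 36.0 and 23.0 in Young cells (1.03 ± 0.089, edgeR adjusted p = 0.047). It was the 1 receptor called higher, where 0.0646% of the 13937 genes tested were, and 0 were lower, where 0.10% were. The positive sides lay above the negative sides in 4 of 4 libraries, although Itgae-positive cells were few in the transfer experiment, at 27.8% of KO and 26.8% of WT cells and at 2.33% of Aged and 8.02% of Young cells. The Gpr55 call did not survive leaving out any 1 library, with adjusted p-values of 0.11 to 0.25 and fold changes of 0.98 to 1.119, but it was made in thinned cells (edgeR adjusted p = 9.6e-06).

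Dendritic cell genes moved with the Itgae gate, at 24097 CPM in positive and 372 in negative Aged cells and at 33267 and 642 in Young cells, against 572 and 336 in KO and 546 and 387 in WT cells. Without barcodes that carried markers of other cell types, 3 receptors were higher in Itgae-positive cells, where 4.67% of the genes tested were, and 1 was lower, where 3.67% were. Gpr55 then stood at 83.2 CPM in positive and 41.5 in negative KO cells, 51.0 and 27.0 in WT, 18.6 and 14.9 in Aged, and 43.2 and 25.9 in Young cells, so that its gap in Aged was smaller than with these barcodes. The 4 receptors were Gpr34 (1.01, edgeR adjusted p = 1.1e-05), Gpr55 (0.92, edgeR adjusted p = 5.3e-07), P2ry14 (0.84, edgeR adjusted p = 9.0e-05) and, lower, Gpr174 (-0.56, edgeR adjusted p = 5.3e-05). In all cells P2ry14 had stood at 15.5 CPM in positive and 9.69 in negative KO cells, 17.5 and 9.75 in WT, 38.0 and 7.34 in Aged, and 40.9 and 8.85 in Young cells (1.53 ± 0.36, edgeR adjusted p = 0.22). Without the barcodes of other cell types P2ry14 stood at 18.0 CPM in positive and 10.1 in negative KO cells and at 19.2 and 10.5 in WT cells. It stood at 18.6 and 7.36 CPM in Aged cells, and at 10.5 and 8.94 in Young cells, where the gap was narrowest.

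Cells with a UMI of Cx3cr1, a chemokine receptor of effector cells, made up 19.5% (KO), 14.01% (WT), 7.85% (Aged) and 7.30% (Young) of the T cells, and 0 of 14 (KO, which allows up to 21.4%), 1.06% (WT), 12.4% (Aged) and 12.0% (Young) of the tumour or stromal barcodes, whose median totals were higher. Thinned, the shares were 2.86% of T cells and 2.73% of 110 tumour or stromal barcodes in Aged, and 2.90% and 2.34% of 128 in Young. In these 2 libraries the gate thus cannot be told apart from that background, on few background barcodes. In the barcodes with this UMI Gpr55 (-0.54), Gpr132 (-0.40), Gpr183 (-0.38) and P2ry10 (-0.34) were lower, where 11.2% of the 14067 genes tested were, and 0 were higher, where 7.52% were. None of these 4 calls was made in thinned cells (-0.10 for Gpr183 to -0.54 for Gpr55), and the adjusted p of Gpr55 was 0.080 without KO and that of Gpr183 0.085 without Aged. The 4 stayed lower without barcodes that carried markers of other cell types, from -0.18 (P2ry10) to -0.31 (Gpr55), where 8.29% of genes were lower and 6.53% higher.

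The difference of each gate effect between the transfer and the Bfar experiment was tested as a further term. For the Tcf7, Gzma and Havcr2 gates no receptor passed, with P2ry14 at the Gzma gate nearest by unadjusted p (0.0011, edgeR adjusted p = 0.57), and 0, 0 and 1 of all genes passed, with 1159, 925 and 1674 at an unadjusted p under 0.05. At the Itgae gate P2ry14 (1.60 ± 0.13 higher in the transfer experiment, edgeR adjusted p = 0.00054) and Gpr183 (-0.53 ± 0.10, edgeR adjusted p = 0.015) passed. Without the barcodes that carried markers of other cell types these terms were -0.30 (edgeR adjusted p = 0.84) and -0.27 (edgeR adjusted p = 0.49).

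Other receptors for lipids and nucleotides divided in the same gates. At the Tcf7 gate 8 of 29 tested were higher and 1 lower (27.6% and 3.45%, against 13.2% and 10.2% of all genes), the higher ones led by the sphingosine phosphate receptor S1pr1 (1.26 ± 0.13, edgeR adjusted p = 0.0018), the cannabinoid receptor Cnr2 (1.00 ± 0.27) and the ATP channel P2rx7 (0.71 ± 0.14), and the lower one was Gpr65 (-0.39 ± 0.062). At the Havcr2 gate 5 of 29 were higher and 7 lower (17.2% and 24.1%, against 13% and 17.3% of all genes), with S1pr1 at -1.51 ± 0.11, S1pr5 at -1.18 ± 0.35 and P2rx7 at -1.17 ± 0.16. The higher ones were led by P2ry6 (2.39 ± 0.37), Gpr35 (2.33 ± 0.41) and Adora2b (1.804 ± 0.51). Without barcodes that carried markers of other cell types P2ry6 and Gpr35 were too rare to be fitted and S1pr5 had an edgeR adjusted p of 0.13. At the Gzma gate 1 of 28, Gpr18, was higher (0.30 ± 0.049). The medians over the list were 0.059 (Tcf7), -0.0072 (Gzma) and 0.064 (Havcr2), beside 0.00041, -0.023 and -0.016 over all genes tested and 0.27, -0.0092 and -0.32 over the 7 members.

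Of 35 signal transducers, 5 were higher and 7 lower in Tcf7-positive cells, and 5 were higher and 8 lower in Havcr2-positive cells. That is 14.3% higher and 20% lower at the Tcf7 gate, against 13.2% and 10.2% of all genes, and 14.3% higher and 22.9% lower at the Havcr2 gate, against 13% and 17.3% of all genes, so the shares of higher calls lay near those of all genes. Rgs16 was lower in Tcf7-positive cells (-0.98 ± 0.081, edgeR adjusted p = 0.0016) and higher in Havcr2-positive cells (0.80 ± 0.037, edgeR adjusted p = 0.00094), and Arrb1, a beta-arrestin that desensitises receptors, did the same (-0.35 and 0.69). Gna13, a G protein alpha subunit, was higher in Tcf7-positive cells (0.52 ± 0.057) and lower in Havcr2-positive cells (-0.66 ± 0.065), as was the cyclic AMP phosphodiesterase Pde4b (0.42 and -0.32). Rgs10 (0.54) and Rgs3 (-0.32) were called at the Tcf7 gate, and Gnaq (0.65) and Pde3b (-0.39) at the Havcr2 gate, where Gnaq had an edgeR adjusted p of 0.13 without barcodes that carried markers of other cell types. At the Gzma gate 0 were higher and 2 lower, Gna12 (-0.30) and Rgs2 (-0.20). The list medians were -0.023 (Tcf7), 0.0054 (Gzma) and -0.043 (Havcr2).

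Of 26 tested enzymes and carriers of ligands, 1 was higher and 5 were lower in Tcf7-positive cells (3.85% and 19.2%, against 13.2% and 10.2% of all genes). The ectonucleotidases split: Nt5e, which makes adenosine from AMP, was higher (0.76 ± 0.11) and Entpd1, which breaks down ATP and ADP, was lower (-1.24 ± 0.15). At the Havcr2 gate 5 were higher and 2 lower (19.2% and 7.69%, against 13% and 17.3% of all genes), with Pla1a, which makes lysophosphatidylserine, at 1.17 ± 0.11, Slc16a3 at 1.08 ± 0.10, Pla2g4a at 1.03 ± 0.20, Nt5e at -0.86 ± 0.11 and Ddhd2 at -0.25 ± 0.047. Enpp2 (-0.72) and Pla1a (-0.65) were also called lower at the Tcf7 gate, but had edgeR adjusted p-values of 0.74 and 0.91 without barcodes that carried markers of other cell types. At the Gzma gate 0 of 26 were called by edgeR, with 1 (Cyp7b1) at an unadjusted p under 0.05. The list medians were -0.12 (Tcf7), -0.029 (Gzma) and 0.11 (Havcr2).

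Across the 32 points of 8 gate classes in 4 libraries, centred within each library, the receptors fell into patterns, given here as descriptions because the points share libraries and gates. P2ry10 and Gpr132 had a Pearson correlation of 0.88, Gpr132 and Gpr183 of 0.86 and P2ry10 and Gpr183 of 0.81. Gpr34 and P2ry14 had 0.69, and Gpr55 and Gpr174 had -0.67. Some points rest on few UMIs. Gpr34 had 2 in Aged Tcf7+ Gzma+ Havcr2- cells and 5 in Aged Tcf7+ Gzma+ Havcr2+ cells, the highest Aged class of both Gpr34 and P2ry14, where P2ry14 had 20. Among 6601 genes with at least 10 CPM in every library, the 3 most like Gpr183 were Emb (0.96), Btg1 (0.95) and Pnrc1 (0.94), and those most like Gpr132 were Elmsan1 (0.94), Itpkb (0.93) and Foxp1 (0.92). Those most like P2ry10 were Jmy (0.90), Grap2 (0.90) and Irf1 (0.89), and those most like P2ry14 were Slamf7 (0.91), Fgl2 (0.90) and Pik3ap1 (0.88). The points include barcodes that carried markers of other cell types. In Young, dendritic genes stood at 17453 CPM in Havcr2-positive and 536 in Havcr2-negative cells. The part of these barcodes in the P2ry14 correlations was not tested. Weaker likeness was found for Gpr34 (Csf1 0.81, Zmiz1 0.80, Gm36723 0.78), Gpr55 (Uhrf1bp1l 0.79, Stat6 0.77, Map3k8 0.76) and Gpr174 (Gnptg 0.77, Rab19 0.75, Sh2d2a 0.75).

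Barcodes outside the T cell gate that carried other cell types' markers were few, and their levels of the receptors have wide intervals. In barcodes with mast cell or basophil markers P2ry14 stood at 76.0 CPM in KO (13 barcodes, interval 43.4 to 123) and 23.7 in WT (35 barcodes, 12.3 to 41.5). In barcodes with dendritic markers Gpr132 stood at 100.2 CPM in Aged and 183 in Young, and Gpr183 at 8.93 CPM in Aged and 10.5 in Young, far under its level in the T cells of the same libraries. Gpr34 had 0 UMIs in the dendritic barcodes of Aged and Young, which allows up to 2.98 CPM in Aged and 3.51 in Young. In barcodes with NK cell markers P2ry10 stood at 305 CPM in KO (9 barcodes, 209 to 431) and 313 in WT (11 barcodes, 227 to 420), and at 59.4 in Aged (10 barcodes) and 128 in Young (49 barcodes). Gpr183 in them stood at 429 CPM in KO (313 to 574) and 178 in WT (115 to 262), and at 119 in Aged and 80.3 in Young. In barcodes with myeloid markers Gpr132 stood at 364 CPM in Aged (10 barcodes, 25 UMIs, 236 to 537), above its T cell level of 159, and at 138 in Young (11 barcodes, 63.3 to 263).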

How the data were processed

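Droplet single-cell RNA was measured in 4 libraries (KO, WT, Aged and Young, grouped by their labels), as UMI counts per gene and barcode that the authors deposited, made with Cell Ranger 6.1.1 (KO, WT) and 7.1.0 (Aged, Young) per the file headers. Per the submitters' processing notes, mm10, Cell Ranger 6.0.0 and Seurat 3.2.3 were used. Per the labels, KO and WT were made with a 3' kit and Aged and Young with an immune profiling kit. No source used here gives the strand or intron setting. No doublet caller was run. Leaving out barcodes with at least 2 genes of another cell type's list, and leaving out the 8% with the most UMIs, stand in for it as alternatives.

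Levels are CPM of summed counts with exact Poisson intervals, ratios have exact conditional binomial intervals and shares exact binomial (Clopper-Pearson) ones. A count of 0 is bounded by 3 counts. Log2 ratios add 1 CPM. Gate sides were tested with edgeR 4.0.16 (glmQLFit and glmQLFTest, TMM, filterByExpr, library block, Benjamini-Hochberg, threshold 0.05) in R 4.3.3, with DESeq2 1.42.0 as an alternative, and Python 3.11.15 with scipy 1.17.1 for the rest. On simulated counts with 100 genes changed per fold size, the Tcf7, Gzma and Havcr2 fits recovered 91, 83 and 68 of those changed 1.5-fold.

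Of the gates planned, 1 is not reported here. The 7 members and all lists were chosen with earlier results of these data known. All members are named. From each list the text names the highest and lowest ratio of a pair and up to 3 called genes a direction in a gate, and for each member the 3 genes with the highest correlation.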

Additional observations from a re-analysis of the deposited data

Results flagged for a closer look

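In 3 cases a receptor lay higher on the positive side of a gate in both libraries of one experiment and lower in both libraries of the other. Gpr34 had a mean log2 ratio between Gzma-positive and Gzma-negative cells of -0.14 in the transfer experiment, against 0.43 in the Bfar experiment (edgeR adjusted p of the difference 0.73). P2ry14 had 0.23 between Mki67-positive and Mki67-negative cells in the transfer experiment, against -0.46 in the Bfar experiment (edgeR adjusted p of the difference 0.19). Dendritic cell genes moved with the Mki67 gate, at 1812 CPM in positive and 973 in negative Aged cells and 9401 and 3691 in Young cells. They stood at 643 and 344 CPM in KO and 680 and 349 in WT cells. P2ry10 had -0.12 between Itgae-positive and Itgae-negative cells in the transfer experiment, against 0.12 in the Bfar experiment (edgeR adjusted p of the difference 0.24).

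The Itgae gate also gave the 2 differences between experiments that passed the edgeR test, 1.60 for P2ry14 and -0.53 for Gpr183 (transfer minus Bfar experiment, log2 scale). Dendritic cell genes moved with this gate in Aged and Young. Without barcodes that carried markers of other cell types, the difference was -0.30 for P2ry14 (edgeR adjusted p = 0.84) and -0.27 for Gpr183 (edgeR adjusted p = 0.49). In cells thinned to 2000 UMIs it was 0.25 for P2ry14 (edgeR adjusted p = 0.93) and -0.60 for Gpr183 (edgeR adjusted p = 0.010).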

How the results depend on the processing

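Over the alternatives, 90 of 126 pair values of the members stayed within their counting interval and 36 did not. Of 252 member values at the Tcf7, Gzma and Havcr2 gates 204 kept direction and side of the threshold, 28 lost and 11 gained a call, and 9 reversed. Of 168 at the other 4 gates, whose alternatives were added after seeing the data, 136 kept both, 18 lost and 9 gained a call, and 5 reversed. All 14 that reversed were under 0.2 in size and uncalled. The Gpr174 value at the Gzma gate reversed to 0.0103 (DESeq2 size factors), 0.0103 (DESeq2), 0.18 (thinned), 0.0074 (other-type barcodes left out), 0.0026 (Foxp3, Cd4 or Trdc barcodes left out) and, with 1 library left out, ran from -0.078 (Young) to 0.034 (WT, and 0.030 for Aged). At the Havcr2 gate it ran from -0.045 (WT, and -0.025 for Aged) to 0.15 (Young). At the other gates P2ry10 ran from -0.010 (without KO) to 0.054 (Itgae, 1 library out). Gpr34 ran from -0.029 (without KO) to 0.12 (Mki67) and from -0.11 to 0.045 (Cx3cr1, without KO) and reversed to 0.024 (Cx3cr1, thinned), and Gpr174 to 0.065 (Cx3cr1, other-type barcodes left out). Genes past 1.5-fold in KO over WT numbered 274 (45 higher, 229 lower), against 572 over all filtered barcodes, 7184 with no filter, 148 at 2-fold, and a split of 70 higher and 194 lower with TMM factors. In Aged over Young there were 512, against 8476 with no filter and 227 at 2-fold. Members past 1.5-fold in Aged over Young fell to 1, against 2, with other-type barcodes left out, with the 8% of barcodes with the most UMIs left out and as a mean of single-cell CPM, where P2ry14 had log2 ratios of -0.22, -0.23 and -0.35. Genes called were 3232 (Tcf7), 541 (Gzma) and 4189 (Havcr2), against 0, 0 and 0 with no library block and 1612 (Tcf7) and 775 (Havcr2) in thinned cells. They were 1384 to 2325, 131 to 449 and 1780 to 3881 when 1 library was left out. The Gzma gate called 974 genes with no filter and 1171 with other-type barcodes left out, and its split of 300 higher and 241 lower was 356 and 187 with DESeq2 size factors and 492 and 242 with DESeq2. The cause of these shifts was not tested. The gate fits pair both sides of each library through the library block, and without it the Tcf7, Gzma and Havcr2 gates gave no call. For KO over WT and Aged over Young no paired analysis was possible because the labels carry no replicate numbers and each group holds 1 library. Members with under 300 UMIs a library (Gpr34 in Aged and Young) are limited by depth.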
